A study of Mus musculus with 6 samples.

Results

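The regulatory T cell signature genes described here are Foxp3, Ikzf2, Ikzf4, Il2ra, Gpr83, Nrp1, Izumo1r, Nt5e, Plagl1 and Lrrc32, a set named for the suppressive T cells in which they are typically enriched. The samples are 6 single-colour arrays of T cells from mouse lymph nodes, of which 3 held T cells labelled Ezh2fl/fl, carrying loxP-flanked Ezh2 alleles in the usual notation, and 3 held T cells labelled Ezh2 deficient. The labels do not name the Cre driver, the strain, the age or sex of the mice, or the sorting, and they do not say whether the arrays of a group came from separate mice. P-values therefore reflect the spread among these samples alone, and part of that spread may be technical. Members were all probe sets (groups of short array probes for the same transcript) whose single annotated gene symbol was on the list. This gave 22 of the 45101 probe sets of the array for 9 of the 10 genes, and no probe set was found here for Lrrc32, which encodes the receptor GARP that tethers latent transforming growth factor beta to the cell surface. Of these 22 probe sets, 17 were bright enough to be tested and all 9 genes kept at least 1, while 5 lay below the 40th percentile of mean brightness.

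Regulatory T cells restrain other lymphocytes and depend on the transcription factor Foxp3, on interleukin 2 received through a high-affinity receptor, and on surface and secreted inhibitors. They make up a minority of lymph node T cells, so most RNA on these arrays comes from conventional CD4+ and CD8+ T cells, some of which also express several of the genes considered. Within Polycomb repressive complex 2, Ezh2 is the enzyme that methylates histone H3 at silenced genes, and it is known to act with Foxp3 at genes that activated regulatory T cells keep silent. In such bulk RNA, fewer cells of a type and less RNA per cell cannot be told apart.

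Ezh2 itself checked the labels. In the order of replicates 1, 2 and 3, which every later value follows, its probe set read a quantile-normalised intensity of 579, 684 and 801 in the Ezh2fl/fl controls and of 282, 289 and 276 in the Ezh2 deficient arrays, so that every deficient array lay below every control. Log2 differences are always given as Ezh2 deficient minus Ezh2fl/fl on the log2(intensity + 43.3) scale. Folds are taken from these differences, so they are not ratios of the printed intensities. For Ezh2 the difference was -1.16 (SE 0.13, limma adjusted p = 0.0705). Its adjusted p ran from 0.0306 (without Ezh2fl/fl replicate 1) to 0.263 over 15 alternatives, and was under 0.05 in 4 of them. The deleted part of Ezh2 is not named in the labels. T cell markers were bright on every array, with a summed intensity of 44671 to 45772 in the controls and 44303 to 46755 in the deficient arrays for 5 of 6 markers, and these sums overlapped here but were higher on every deficient array on the deposited intensities and with their median centring. Ezh2fl/fl replicate 1 was the outermost array on the first principal component, at -41.5 against 1.48 to 15.1 for the other 5.

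No signature gene passed the test, and their values lay on both sides of 0. With 1 probe set for each gene, the brightest, 5 genes were higher and 4 lower in the deficient T cells, and the median log2 difference was 0.06, beside -0.01 over all 12275 tested genes. Both other scalings gave the same split of 5 and 4. Without Ezh2fl/fl replicate 1 it was 3 higher and 6 lower with a median of -0.21, and without Ezh2 deficient replicate 1 it was 4 and 5. The highest were Plagl1 at 0.75 and Izumo1r at 0.57, and the lowest were Nrp1 at -0.48, Il2ra at -0.28 and Foxp3 at -0.28. Among the member probe sets the smallest adjusted p was 0.483 (limma, Benjamini-Hochberg, threshold 0.05), beside a background of 0.0037% of the 27022 tested probe sets called, which is 1 probe set (3 without Ezh2fl/fl replicate 1, and 6 when Ezh2 deficient replicate 2 was left out). At an unadjusted limma p under 0.05, 3 of the 17 member probe sets were higher and 1 was lower, beside 3.84% and 3.38% of all probe sets.

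**Figure D1:**
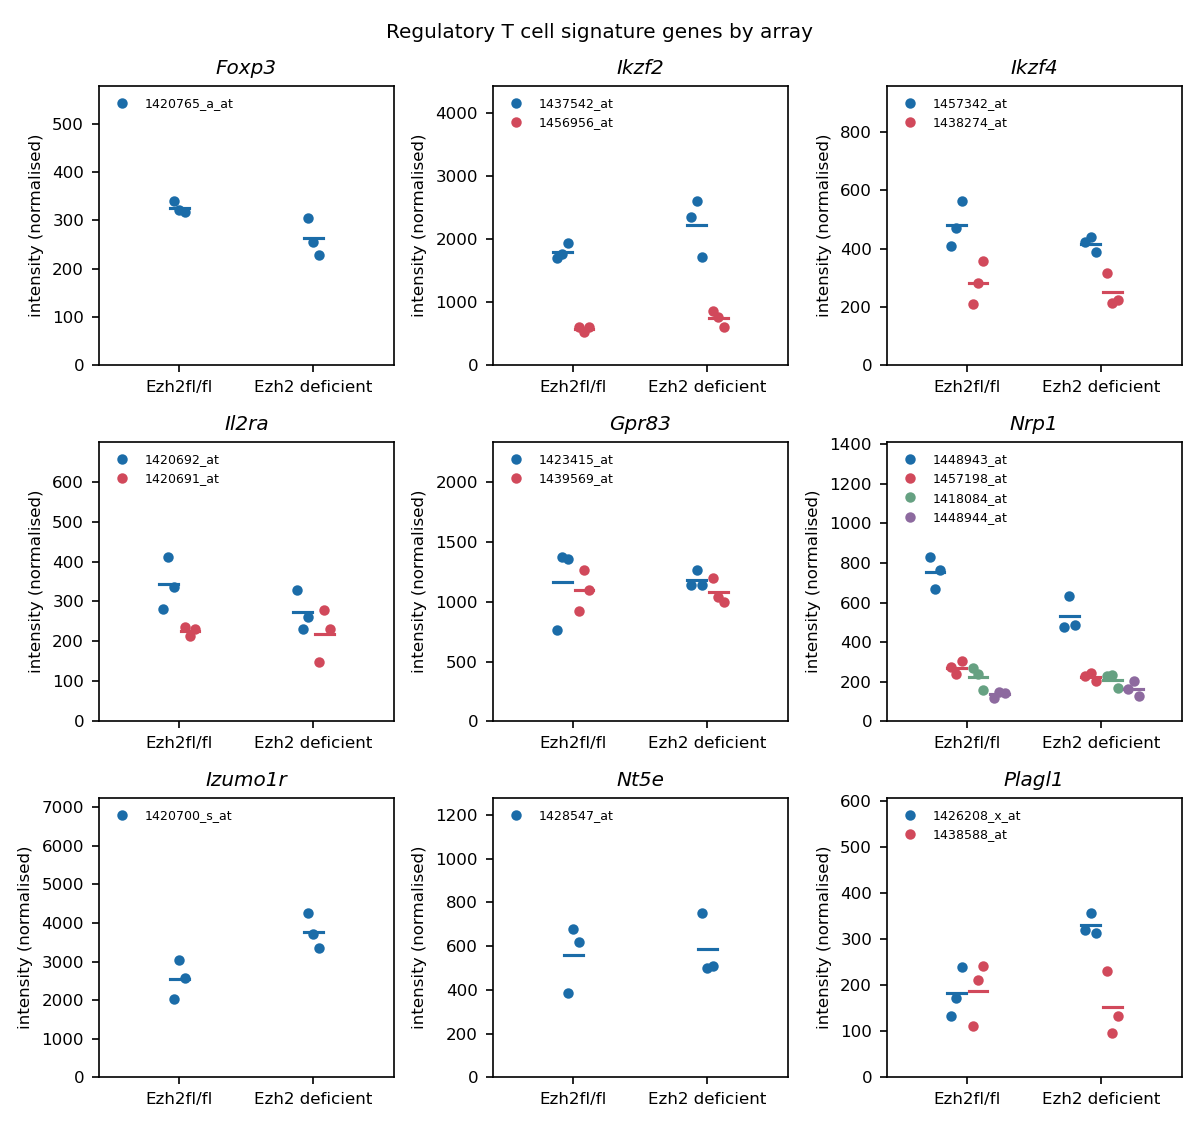
Quantile-normalised intensity (linear axis from 0) of the 17 tested probe sets of 9 signature genes on the 3 Ezh2fl/fl and 3 Ezh2 deficient arrays, with 1 point per array, 1 colour per probe set and a bar at each group mean. Izumo1r and 1 Plagl1 probe set lie higher on every deficient array, Foxp3 and the brightest Nrp1 probe set lie lower, and the Gpr83 and Nt5e groups overlap.

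The intensities of the 2 groups did not overlap for 3 member probe sets on the higher side (Izumo1r, Plagl1 and Ikzf2) and 2 on the lower side (Foxp3 and Nrp1). Over all tested probe sets the same was true of 6.55% on the higher side and 6.54% on the lower side. Without Ezh2fl/fl replicate 1 the members' count on the lower side was 5, with Ikzf4, Il2ra and Gpr83 added to Foxp3 and Nrp1, beside 12.1% of all probe sets, and without Ezh2 deficient replicate 3 the count on the higher side was 5, with another Ikzf2 and an Nrp1 probe set added, beside 11.01%. With 3 arrays a group, the exact permutation test allows no p below 0.10, which is what each of these 5 probe sets reached (two-sided).

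**Figure D2:**
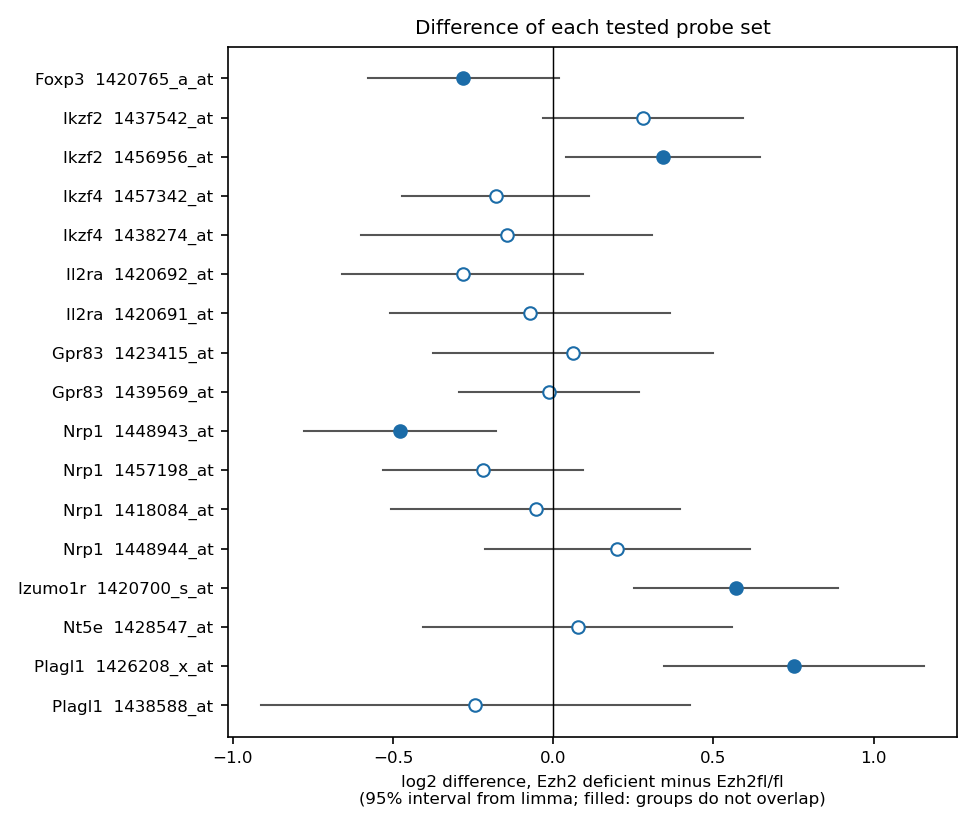
Log2 difference (Ezh2 deficient minus Ezh2fl/fl) of each of the 17 tested probe sets, with the 95% interval from limma as a line. Filled points mark the 5 probe sets whose groups do not overlap, and intervals lie wholly on 1 side of 0 for Nrp1 (1448943_at), Izumo1r, Ikzf2 (1456956_at) and Plagl1 (1426208_x_at).

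Foxp3, the transcription factor that defines regulatory T cells, was lower on every deficient array. Its single probe set read 340, 322 and 318 in the controls and 305, 255 and 228 in the deficient T cells. The control arrays lay close together, at 327 ± 11.8 (SD, n = 3), while the deficient arrays spread down from just below them, at 263 ± 38.9 (SD, n = 3). The difference of 1.21-fold (log2 -0.28, 95% interval -0.58 to 0.02) did not pass the test (limma adjusted p = 0.706), and 12.9% of all tested probe sets differed by at least as much. It was between -0.38 and -0.20 in the 6 runs that each left out an array. The RefSeq promoter table (GRCm38.p6) lists 2 windows for Foxp3, each from 250 bases before to 50 after a transcript start, and the upstream one (chrX:7579426-7579725, plus strand) is shown because Foxp3 defines the set, with every CG dinucleotide in capitals.
Foxp3: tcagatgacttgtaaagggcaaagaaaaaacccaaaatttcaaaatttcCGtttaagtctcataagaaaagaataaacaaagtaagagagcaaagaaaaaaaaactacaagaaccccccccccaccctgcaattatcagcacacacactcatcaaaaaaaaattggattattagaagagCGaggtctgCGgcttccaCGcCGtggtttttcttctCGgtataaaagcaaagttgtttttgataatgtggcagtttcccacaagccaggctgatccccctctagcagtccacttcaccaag
CG dinucleotides were counted because Polycomb repressive complex 2 is best known from CG-rich promoters. The Foxp3 windows held 6 and 8, beside a median of 7 over all 32841 windows of this length, of which 94.6% held at least 1.

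The related zinc finger factors Ikzf2 (Helios) and Ikzf4 (Eos), both partners of Foxp3 in regulatory T cells, had values on opposite sides of 0. The brighter Ikzf2 probe set read 1698, 1770 and 1940 in the controls and 2354, 2602 and 1721 in the deficient T cells. Deficient replicates 1 and 2 lay above every control, and deficient replicate 3 lay among them. Its other tested probe set read 605, 524 and 607 in the controls and 866, 774 and 612 in the deficient arrays, again with replicate 3 the lowest of the deficient arrays but here only just above the highest control. On the deposited intensities, before quantile normalisation, that last gap closed and the groups overlapped. The log2 differences were 0.28 (95% interval -0.03 to 0.59) and 0.34 (0.04 to 0.64), with limma adjusted p = 0.712 and 0.650. Without Ezh2 deficient replicate 3 the first was 0.45, and without Ezh2 deficient replicate 2 it was 0.16. Another Ikzf2 probe set was dim, at 6.8 to 12.7 on all 6 arrays, and was not tested.

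Ikzf4 read 410, 470 and 563 in the controls and 424, 438 and 389 in the deficient arrays on its brighter probe set. The groups overlapped, with 2 deficient arrays above the lowest control, Ezh2fl/fl replicate 1, and did not overlap without that array. The log2 difference was -0.18 (95% interval -0.47 to 0.11), and -0.15 (-0.60 to 0.31) on its other tested probe set. With an array left out the values ran from -0.28 (without Ezh2fl/fl replicate 1) to -0.07 (without Ezh2fl/fl replicate 3) on the first, and from -0.32 to 0.02 with the same arrays left out on the second. Its remaining probe set was dim, at 10.7 to 20.8. Neither Ikzf4 probe set passed (limma adjusted p = 0.793 and 0.899), and whether Ikzf2 and Ikzf4 differ in their response was not tested.

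Il2ra encodes CD25, the alpha chain that gives the interleukin 2 receptor its high affinity. Its brighter probe set read 281, 411 and 337 in the controls and 328, 232 and 261 in the deficient T cells. Deficient replicates 2 and 3 lay below every control, and deficient replicate 1 lay within them. The groups did not overlap without Ezh2fl/fl replicate 1 or without Ezh2 deficient replicate 1. On the other probe set deficient replicate 1 was instead the lowest of the 6 arrays, at 148, and replicate 2 the highest, at 280, while the controls read 237, 213 and 231. The log2 differences were -0.28 (95% interval -0.66 to 0.09) and -0.07 (-0.51 to 0.36), and neither passed (limma adjusted p = 0.739 and 0.949). The first was -0.16 without Ezh2fl/fl replicate 2, and the second ran from -0.24 (without Ezh2 deficient replicate 2) to 0.14 (without Ezh2 deficient replicate 1).

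Nrp1 encodes neuropilin 1, a co-receptor for semaphorins and vascular endothelial growth factor that marks many thymus-derived regulatory T cells. Its brightest probe set (1448943_at) read 830, 671 and 766 in the controls and 475, 634 and 488 in the deficient T cells. Every deficient array was lower than every control, with deficient replicate 2 closest to them. The difference was 1.39-fold (log2 -0.48, 95% interval -0.78 to -0.18), with limma adjusted p = 0.558, and 3.16% of all tested probe sets differed by at least as much. The other 3 Nrp1 probe sets did not show a difference of that size. They stood at -0.22 (1457198_at, 95% interval -0.53 to 0.09), -0.06 (1418084_at, -0.50 to 0.39) and 0.20 (1448944_at, -0.21 to 0.61), with overlapping groups on each. With an array left out, 1448943_at ran from -0.60 (without Ezh2 deficient replicate 2) to -0.41 (without Ezh2 deficient replicate 1). The range for 1457198_at was -0.30 (without Ezh2fl/fl replicate 2) to -0.15 (without Ezh2fl/fl replicate 3). In the same runs 1418084_at ran from -0.24 (without Ezh2fl/fl replicate 3) to 0.08 (without Ezh2fl/fl replicate 1), and 1448944_at from 0.07 (without Ezh2 deficient replicate 2) to 0.33 (without Ezh2 deficient replicate 3).

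Izumo1r, the folate receptor family gene once named folate receptor 4, is highly expressed on regulatory T cells and on some other CD4+ T cells. Its single probe set read 2026, 3036 and 2579 in the controls and 4257, 3712 and 3348 in the deficient T cells, so that all 3 deficient arrays lay above all 3 controls. The means were 2547 ± 506 and 3772 ± 457 (SD, n = 3 each), a 1.49-fold difference (log2 0.57, 95% interval 0.25 to 0.89). It did not pass (limma adjusted p = 0.501), with 1.78% of all tested probe sets at least as far from 0. Its name ends in _s_at, which marks a probe set that can match several transcripts. Without Ezh2fl/fl replicate 1, the lowest control, the log2 difference was 0.42.

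Gpr83, which encodes a G protein-coupled receptor found on regulatory T cells, is the neighbour of Izumo1r on chromosome 9, with 0 genes annotated between them in RefSeq. Gpr83 read 766, 1373 and 1358 in the controls and 1139, 1264 and 1137 in the deficient T cells on one probe set. The controls enclosed the deficient arrays, since Ezh2fl/fl replicate 1 was far below the others. On the other probe set the controls read 919, 1265 and 1099 and the deficient arrays 1195, 1039 and 1000, again with the deficient arrays inside the range of the controls. The log2 differences were 0.06 (95% interval -0.38 to 0.50) and -0.01 (-0.29 to 0.27). Without Ezh2fl/fl replicate 1 the first was -0.21. Neither passed (limma adjusted p = 0.958 and 0.988), and whether Gpr83 and Izumo1r differ in their response was not tested. Both promoter windows are shown because these neighbours gave different values, 0.57 for Izumo1r and 0.06 and -0.01 for Gpr83, again with CG in capitals (Izumo1r at chr9:14903718-14904017, minus strand, and Gpr83 at chr9:14859960-14860259, plus strand, GRCm38.p6).
Izumo1r: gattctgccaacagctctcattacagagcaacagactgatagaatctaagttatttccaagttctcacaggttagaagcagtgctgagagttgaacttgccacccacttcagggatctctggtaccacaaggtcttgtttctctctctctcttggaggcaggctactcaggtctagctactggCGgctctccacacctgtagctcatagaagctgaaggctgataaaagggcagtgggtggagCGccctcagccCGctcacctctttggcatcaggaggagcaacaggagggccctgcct
Gpr83: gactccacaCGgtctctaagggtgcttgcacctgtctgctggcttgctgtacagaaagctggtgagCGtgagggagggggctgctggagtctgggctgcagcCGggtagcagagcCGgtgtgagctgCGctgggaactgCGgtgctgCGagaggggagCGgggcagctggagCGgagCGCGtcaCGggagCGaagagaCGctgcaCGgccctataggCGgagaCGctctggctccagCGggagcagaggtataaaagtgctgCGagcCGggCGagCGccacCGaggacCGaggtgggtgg
The Izumo1r window held 3 CG dinucleotides, with at least as many in 76.7% of all windows, and the Gpr83 window held 24, with at least as many in 19.98%. Whether CG counts go with the differences was not tested, here or for the other members.

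Nt5e encodes CD73, the surface enzyme that turns adenosine monophosphate into adenosine. Its tested probe set read 385, 676 and 620 in the controls and 751, 502 and 511 in the deficient T cells. The groups overlapped widely, and the log2 difference was 0.08 (95% interval -0.40 to 0.56, limma adjusted p = 0.952). Without Ezh2fl/fl replicate 1, the lowest array, it was -0.16. The other 2 Nt5e probe sets were below the filter, at 25.5 to 219 and 61.9 to 164.

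Plagl1 encodes an imprinted zinc finger factor that slows cell division. On the probe set 1426208_x_at it read 133, 173 and 240 in the controls and 319, 357 and 313 in the deficient T cells, with all 3 deficient arrays above the highest control. The difference was 1.68-fold (log2 0.75, 95% interval 0.34 to 1.16), the largest among the members in size, with limma adjusted p = 0.483 and 0.696% of all tested probe sets at least as far from 0. The suffix _x_at marks a probe set that may also bind other transcripts. On 1438588_at the controls read 111, 212 and 241 and the deficient arrays 231, 95.8 and 134, which overlap. The log2 difference there was -0.24 (95% interval -0.91 to 0.43), and it ran from -0.51 without Ezh2fl/fl replicate 1 to -0.02 without Ezh2 deficient replicate 2. The last Plagl1 probe set was dim on all arrays, at 12.0 to 20.5.

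**Figure D3:**
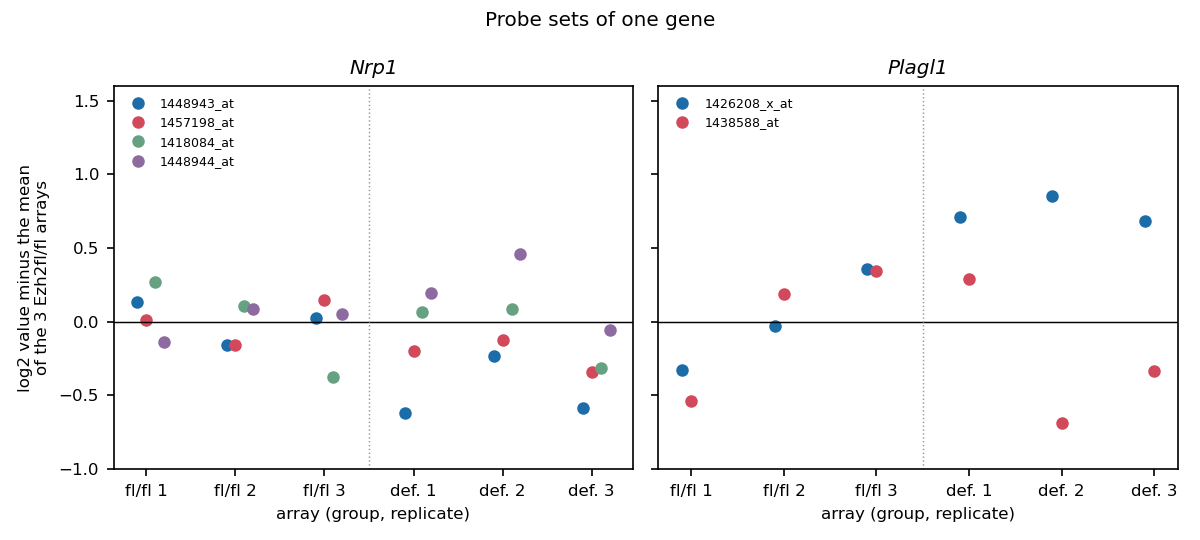
Log2 value of each tested Nrp1 and Plagl1 probe set on each array, minus that probe set's mean over the 3 Ezh2fl/fl arrays (1 point per array, 1 colour per probe set). The 2 Plagl1 probe sets part in the deficient arrays, at 0.71, 0.85 and 0.69 for 1426208_x_at against 0.29, -0.69 and -0.33 for 1438588_at, and the 4 Nrp1 probe sets spread from -0.62 to 0.46 in the deficient arrays.

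Agreement between probe sets was tested on the difference itself. For each gene with more than 1 tested probe set, the log2 value of the brightest minus that of each other one was compared between the groups, in limma over all 9727 such pairs of the array. Of 8 member pairs in 6 genes, 5 leaned the same way, beside 58.7% of all pairs. For Plagl1 the difference between its probe sets changed by 0.99 (95% interval 0.36 to 1.63), and it was higher on every deficient array than on every control. For Nrp1 the brightest probe set changed by -0.68 relative to 1448944_at (95% interval -1.06 to -0.30), -0.42 relative to 1418084_at (-0.90 to 0.05) and -0.26 relative to 1457198_at (-0.57 to 0.05). Over all pairs 0 passed in limma (0% called, Benjamini-Hochberg adjusted p under 0.05), and the Plagl1 pair and the first Nrp1 pair had an adjusted p of 0.895 each. At an unadjusted p under 0.05 there were 2 member pairs, beside 5.47% of all pairs. The pairs of Ikzf2, Ikzf4, Gpr83 and Il2ra changed by -0.06, -0.03, 0.08 and -0.21, each with an interval that includes 0, and without Ezh2fl/fl replicate 1 the Gpr83 pair was at -0.08 and the Ikzf4 pair at 0.04. With the mean of all tested probe sets of a gene in place of the brightest, Plagl1 stood at 0.25 and Nrp1 at -0.14.

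CG counts were also read for the other members whose groups did not overlap and that matched the promoter table. Beside Foxp3 and Izumo1r, the Nrp1 window held 14 CG dinucleotides, a number reached by 36.3% of all windows, and the Plagl1 window 26, reached by 16.9%. Among the members whose groups overlapped on every probe set, the Il2ra window held 3 (reached by 76.7%), the Nt5e window 23 (21.5%) and the Gpr83 window 24 (19.98%). The Plagl1 window (chr10:13090582-13090881, plus strand, GRCm38.p6) is shown as the richest in CG.
Plagl1: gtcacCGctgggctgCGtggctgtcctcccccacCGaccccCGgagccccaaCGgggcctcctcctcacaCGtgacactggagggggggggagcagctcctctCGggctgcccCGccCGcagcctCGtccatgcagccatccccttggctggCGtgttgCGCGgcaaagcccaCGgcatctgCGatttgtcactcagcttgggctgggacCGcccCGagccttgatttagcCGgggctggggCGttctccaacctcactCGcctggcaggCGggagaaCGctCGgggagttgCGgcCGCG
In all, 7 of the 10 genes matched the RefSeq promoter table. Ikzf2, Ikzf4 and Lrrc32 did not.

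Among other genes that are typically higher in regulatory than in conventional T cells, more were lower than higher in the deficient T cells, as over all tested genes, and none passed the test. Of 20 tested genes on this list, 12 were lower and 8 higher, beside 6518 lower and 5757 higher of all 12275 tested genes. The median log2 difference was -0.12, beside -0.01 over all tested genes. The split was 13 and 7 on the deposited intensities, where 14689 of all 27022 tested probe sets were lower. With their median centring it was 11 and 9, where 10231 were lower. The groups did not overlap for 7 on the lower side and 1 on the higher side beside 7.8% and 6.4% of all tested genes. These counts were 9 and 1 on the deposited intensities, beside 8.44% and 5.93% of all tested genes. With median centring they were 6 and 1, beside 4.46% and 10.9%. With an array left out they were 7 to 10 and 1 to 5 (10 and 1 without Ezh2 deficient replicate 1, 7 and 5 without replicate 3 of that group, 7 and 4 without Ezh2fl/fl replicate 3). In those runs 12.0% to 13.9% and 10.1% to 12.0% of all tested genes did not overlap. Capg, which caps actin filaments, was at -0.88 (95% interval -1.20 to -0.55, limma adjusted p = 0.248), and its second probe set gave -0.45. Itgae, the integrin chain CD103, was at -0.75 (-1.13 to -0.36, adjusted p = 0.427). On the higher side stood Ctla4, an inhibitory receptor on which regulatory T cells rely, at 0.40 (0.17 to 0.62, adjusted p = 0.520). The remaining 5 of the 7, picked here because of these values, were the enkephalin precursor Penk at -0.51, Ecm1 at -0.35, the inhibitory receptor Klrg1 at -0.31 and the tumour necrosis factor receptors Tnfrsf18 (GITR) and Tnfrsf4 (OX40) at -0.27 each. The list was chosen with earlier results of these data known, so its balance is a description.

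**Figure D4:**
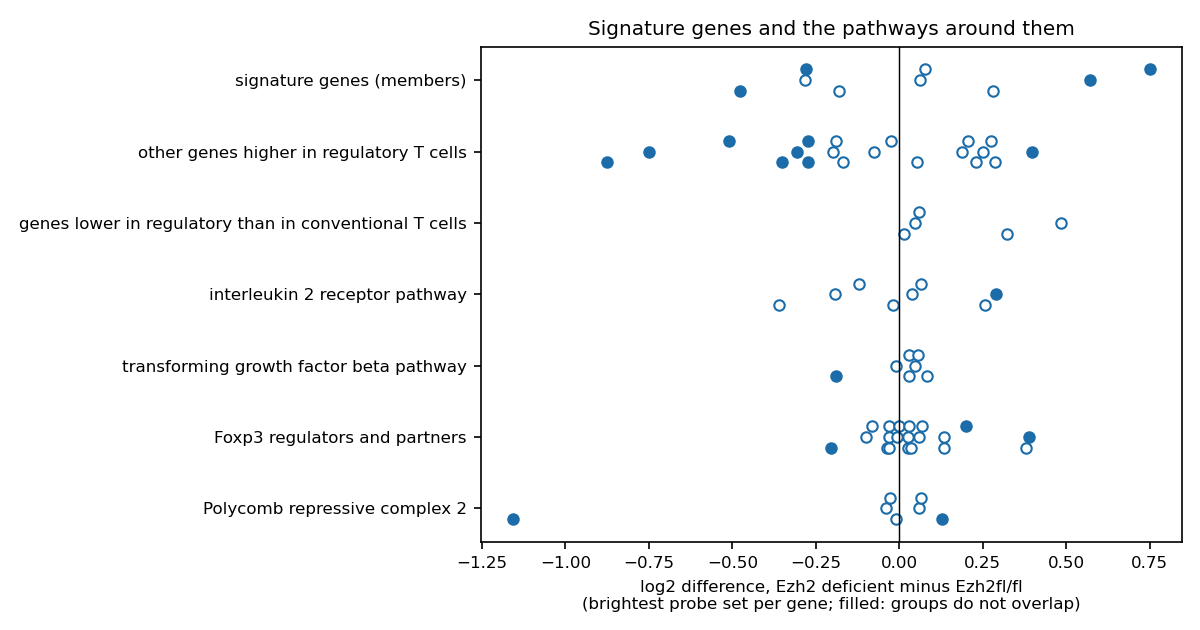
Log2 difference (Ezh2 deficient minus Ezh2fl/fl) of the brightest probe set of each tested gene, for the signature genes and 6 lists of related genes, with 1 point per gene and vertical offsets only for legibility. Filled points mark genes whose groups do not overlap, which are 4 of the 9 signature genes and 8 of the 20 other genes higher in regulatory T cells, beside 14.2% of all tested genes.

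Genes that are lower in regulatory than in conventional T cells had a median on the other side of 0. All 5 of those listed (Il7r, Pde3b, Satb1, Igfbp4 and Dapl1) were above 0 on the brightest probe set, with a median of 0.06, beside 46.9% of all tested genes above 0. They were also above 0 under both other scalings, though median centring put 16791 of all 27022 tested probe sets above 0. None was called, the groups overlapped for each, and Il7r was at -0.02 on its other probe set. Leaving out 1 array left 4 of the 5 above 0 in 5 of the 6 runs. Pde3b, a phosphodiesterase that Foxp3 represses, was at 0.32 (95% interval 0.05 to 0.60, limma adjusted p = 0.643). In the interleukin 2 receptor pathway 4 of 8 tested genes were higher and 4 lower (median 0.01), 5 and 3 under both other scalings, 6 and 2 without Ezh2fl/fl replicate 2, and 2 and 6 without Ezh2fl/fl replicate 3. There the receptor beta chain Il2rb was at 0.29 (0.01 to 0.57, adjusted p = 0.682), against the values of Il2ra below 0. Whether Il2rb and Il2ra differ in their response was not tested. In the transforming growth factor beta pathway, which helps to induce Foxp3, 5 of 7 were higher (median 0.03), 6 of 7 under both other scalings and 3 of 7 without Ezh2fl/fl replicate 1, and 0 reached an unadjusted p under 0.05.

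Known regulators and partners of Foxp3 had a median of 0.03, with 11 of 20 tested genes higher. With median centring, which moved the median of all tested probe sets to 0.05, 19 of these 20 were higher, and 16 were without Ezh2fl/fl replicate 3 and 13 on the deposited intensities. Cblb, a ubiquitin ligase that restrains T cell activation, was at 0.39 (95% interval 0.23 to 0.55, limma adjusted p = 0.333). Ikzf3, the Ikaros family member Aiolos, was at 0.20 with its other probe sets between -0.30 and 0.20, and Nfatc2, which binds DNA with Foxp3, was at -0.20 with others between -0.15 and 0.31. Of the Polycomb repressive complex 2 subunits, Ezh2 was at -1.16 and on their brightest probe sets the other 6 lay between -0.04 and 0.13, the latter for Rbbp4, all 6 being above 0 with median centring. Other probe sets ran from -0.13 to 0.22 for Rbbp4 and from -0.33 to 0.26 for Suz12.

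Markers of the T cell subsets and of other lymph node cells were summed on each array. The 2 CD4 T cell markers summed to 3178 to 3884 in the controls and 3142 to 3552 in the deficient arrays, which overlap. The 2 CD8 T cell markers summed to 21547 to 22336 and 19659 to 20796, lower on every deficient array, but overlapping on the deposited intensities and with median centring. Of these, Cd8b1 was at -0.17 (limma adjusted p = 0.581) and Cd8a at -0.06 on its brightest probe set, with 4 others between -0.23 and -0.08. The 6 macrophage and monocyte markers, of which Cd14 and Itgam were below the filter, summed to 1066 to 1119 and 893 to 1047, lower on every deficient array under all 3 scalings, with Csf1r at -0.42 on its brightest probe set but at 0.12 and 0.29 on 2 others, Cd68 at -0.17, Lyz2 at -0.14 and Adgre1 at 0.23. Sums overlapped for the markers of B cells (6 of 7 found, 1346 to 1459 and 1352 to 1440, with Cd79a below the filter), natural killer cells (3 of 4 found, 992 to 1348 and 1196 to 1583, with Ncr1 below it) and dendritic cells (617 to 832 and 617 to 629, with Cd209a and Flt3 below it, and lower on every deficient array on the deposited intensities). They also overlapped for plasmacytoid dendritic cells (3438 to 5576 and 3653 to 6033), endothelial cells (1525 to 1986 and 1425 to 1620, with Cdh5 and Tek below the filter), both of which can express Nrp1, and for stromal cells (615 to 733 and 729 to 759, with Col3a1 and Dcn below it, and higher on every deficient array with median centring). Such sums rest mostly on their brightest markers. For plasmacytoid dendritic cells these were Ccr9 (group means 3066 and 2676) and Bst2 (1460 and 2018), while Siglech read 167 and 120. Eomes (919 and 1112) led the natural killer sum. Pecam1 (1114 and 960) led the endothelial one and was lower on every deficient array, at -0.20, with Emcn at -0.29 and Kdr at 0.09. The part of the CD8 T cell and macrophage markers in the values of Foxp3, Nrp1, Izumo1r and Plagl1, and of Itgae and Klrg1, which CD8+ T cells express too, was not tested.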

How the data were processed

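RNA of 6 mouse lymph node T cell samples was measured on single-colour arrays. The authors deposited linear intensities, 1 per probe set and array. Their software is not given in the sources used here, and a trimmed mean of 500.002 on every array (2% left out at each end) is what the deposited intensities show. Array medians ran from 163.3 to 188.1, so arrays were quantile normalised, 43.3 (the 20th percentile of all values) was added and log2 taken, which understates changes of dim transcripts. The 64 control probe sets and those with a mean below the 40th percentile were left out, leaving 27022. Differences were tested with limma 3.58.1 in R 4.3.3 (lmFit, eBayes with trend, two-sided, Benjamini-Hochberg over all tested probe sets). Pairs of probe sets were fitted the same way but without the trend, with Benjamini-Hochberg over all 9727 pairs. There is no covariate, and the array numbers pair no samples. Array pairs of a group correlated at 0.972 to 0.982, pairs from different groups at 0.969 to 0.980, and none were identical. The number of arrays limits the precision.

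Gene names came from the platform annotation (34945 probe sets with 1 symbol, 932 with several, 9160 with none, 0 symbols changed through RefSeq). All member probe sets and, from each list, at most the 2 highest and 2 lowest genes at an unadjusted p under 0.05 were named by rule. Members and lists were chosen with earlier results of these data known. The limma steps were tested on simulated data. Alternatives covered scaling, pseudocount, filter, variance model, array weights, threshold, gene means and each array left out.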

Additional observations from a re-analysis of the deposited data

How the results depend on the processing

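None of the member probe sets tested under an alternative was called at an adjusted p under 0.05 in any of the 15 other fits over probe sets, at an adjusted p under 0.10, or with gene means, and 0 pairs were called under any alternative run for pairs. Over the whole array the 1 call became 3 under the deposited scaling, 2 with its median centring, 3 by robust eBayes, 3 with array weights and 1 to 6 with an array left out (3 without Ezh2fl/fl replicate 1, 6 without Ezh2 deficient replicate 2). Of the 17 member probe sets, 11 kept their direction wherever tested. The others were Gpr83 on 1439569_at (0.054 with median centring, -0.13 to 0.093 with an array left out) and 1423415_at (-0.034 with array weights, -0.21 to 0.20 with an array left out), Nrp1 on 1418084_at (0.020 with array weights, -0.24 to 0.079), Nt5e (-0.16 to 0.22), Ikzf4 on 1438274_at (-0.32 to 0.017) and Il2ra on 1420691_at (-0.24 to 0.14). The pairs of Gpr83 (-0.078 to 0.20), Ikzf4 (-0.16 to 0.11) and Il2ra (-0.54 to 0.050) also crossed 0 with an array left out. With an array left out, member probe sets without overlap numbered 3 to 5 on the higher side (5 without Ezh2 deficient replicate 3) and 2 to 5 on the lower side (5 without Ezh2fl/fl replicate 1), where smaller groups overlap less easily. In those runs 10.8% to 12.6% of all tested probe sets did not overlap on the higher side and 11.2% to 12.4% on the lower side. On the higher side the members numbered 2 under the deposited scaling, beside 5.84% of all tested probe sets. They also numbered 2 there with the filter at the 60th percentile, where the share over all probe sets was not taken. The cause of the other changes was not tested. The counts of each gene list and the marker sums under other scalings, the list counts with an array left out, and the alternatives for Ezh2 were chosen after seeing the data. The 3 arrays a group limit the precision, and no detection calls were used. No paired analysis was possible because the array numbers pair no samples.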
